A study of Mus musculus with 12 samples.

Results

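The 8 genes described here encode components and regulators of complement: C3, C1ra, C1s1, C2, C4b, Cfb, Cd55 and Serping1. They were selected on measured levels of these same libraries, since earlier results of the data were known when the list was drawn up, and were found by matching their symbols to the Ensembl identifiers of the count table. All 8 were among the 56093 entries of that table, and 5 of them (C3, C1ra, C1s1, C2 and C4b) passed the filter on low counts. The values of the 8 genes are therefore given as a description, with the spread between libraries and without p-values. RNA was sequenced in bulk from B16 cells, a mouse melanoma line grown in DMEM with serum, and 4 groups of 3 libraries were compared. Cells with a hairpin RNA that targets Sdc1, the gene of the heparan sulfate proteoglycan syndecan-1, were given IFNγ at 10 ng/ml for 24 h (called shSdc1 with IFNγ), and so were control cells with a hairpin against RFP (shRFP with IFNγ). The same cells without IFNγ formed the groups shSdc1 and shRFP. Every group thus carried a hairpin. The sources used here give neither the number of Sdc1 hairpins nor whether replicate libraries were made from separate cultures. P-values below then measure only the spread between these libraries, which may be technical.

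Complement is a cascade of proteases in blood and tissue fluid that tags surfaces for uptake and can end in a membrane pore. In the classical pathway C1q binds antibody and activates the proteases C1r and C1s, which cleave C4 and C2 to form the convertase that splits C3. The lectin pathway reaches the same convertase through the MASP proteases, and the alternative pathway builds its convertase from C3b and factor B. C1 inhibitor, the product of Serping1, blocks C1r, C1s and the MASPs, and CD55 speeds the decay of convertases on the cell's own membrane. The liver makes most of the plasma pool, and many other cells make some of these proteins when exposed to interferon or other inflammatory cytokines.

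The libraries held 14337771 to 21548940 counts, and levels are in CPM (counts relative to the library total, scaled by TMM for composition), given as mean ± SD of 3 libraries. Sdc1 stood at 25.8 ± 1.03 CPM in shSdc1 with IFNγ against 88.5 ± 12.4 CPM in shRFP with IFNγ, and at 23.7 ± 1.78 CPM in shSdc1 against 75.4 ± 1.34 CPM in shRFP. The 7 melanocyte markers listed were all present, with group means from 233 to 6636 CPM per gene. Their sum was 11750 to 13170 CPM in shSdc1 with IFNγ, 16610 to 18170 CPM in shRFP with IFNγ, 12940 to 13370 CPM in shSdc1 and 17240 to 17290 CPM in shRFP. By edgeR 6 of the 7 were called lower in the knockdown with IFNγ (all but Sox10) and 7 without it. Of all genes, 17.4% were called lower with IFNγ and 14.6% without it. Some marker steps were small on the log2 scale: without IFNγ, Dct -0.105 ± 0.034, Sox10 -0.126 ± 0.040 and Tyrp1 -0.139 ± 0.044. The pigment gene Pmel had the largest step, at 1524 ± 119 against 4300 ± 237 CPM with IFNγ and 1798 ± 52.0 against 4394 ± 48.6 CPM without it, shSdc1 before shRFP. This shift moved with the knockdown differences of the complement genes below, and its part in them was not tested. Among 11 leukocyte markers, Adgre1, Tyrobp and Cd3e had 0 counts in all 12 libraries, and the summed level of the list was 16.1 to 17.1 CPM in shSdc1 with IFNγ, 6.23 to 9.44 CPM in shRFP with IFNγ, 8.82 to 9.59 CPM in shSdc1 and 3.601 to 3.73 CPM in shRFP. That sum moved in the same direction as C1ra and C1s1 below, and most of it was Cd68. Cd68 also reached 7.25 ± 0.32 CPM in shSdc1 against 2.45 ± 0.51 CPM in shRFP. Cd68 and Lyz2, the only leukocyte markers to pass the filter, were called higher by edgeR in the knockdown with and without IFNγ. The log2 fold changes were 1.20 ± 0.15 (Cd68) and 1.24 ± 0.32 (Lyz2) with IFNγ, and 1.54 ± 0.18 and 1.44 ± 0.35 without it. By comparison, 18.9% of all genes were called higher with IFNγ and 14.0% without it. The part of these markers in the results was not tested. The 7 fibroblast markers, whose cells make complement, summed to 23.2 to 26.3 CPM in shSdc1 with IFNγ, 31.4 to 35.7 CPM in shRFP with IFNγ, 28.8 to 29.95 CPM in shSdc1 and 56.4 to 59.8 CPM in shRFP, with Dcn at 0 throughout. The lower sums of the knockdown came from Col1a2, at 8.05, 19.2, 12.5 and 40.5 CPM in the same order of groups. Pdgfra and Pdgfrb were not called for the knockdown, and Col1a1 was called higher with IFNγ (1.36 ± 0.33, edgeR adjusted p = 0.0033). Markers of endothelial cells and hepatocytes summed to at most 0.547 CPM in any library, and Kdr and Serpina1a were at 0 throughout. The entry ENSMUSG00000119584, unnamed in the reference, took up 4.79% of shSdc1 replicate 3 and 0.0842 to 0.195% of each of the remaining 11 libraries.

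The proteases of the classical pathway were higher in both knockdown groups and after IFNγ. C1ra, which encodes the C1r protease, stood at 129.7, 128.9 and 120.4 CPM in replicates 1 to 3 of shSdc1 with IFNγ and at 68.3, 65.5 and 62.1 CPM in shRFP with IFNγ. Without IFNγ it stood at 18.3, 23.3 and 20.4 CPM in shSdc1, against 9.16, 9.61 and 9.05 CPM in shRFP. The 4 groups did not overlap, and the level of shSdc1 without IFNγ lay between those of the control groups. On the log2 scale the difference of shSdc1 from shRFP was 0.95 ± 0.06 with IFNγ and 1.15 ± 0.09 without it (fitted log2 fold change ± SE). That of IFNγ was 2.61 ± 0.07 in shSdc1 and 2.82 ± 0.08 in shRFP. In bulk RNA a change in the RNA of each cell and a change in the share of cells that make it cannot be told apart.

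C1s1, which encodes C1s, the protease that C1r activates, stood at 55.9, 67.0 and 49.9 CPM in shSdc1 with IFNγ and at 8.27, 4.80 and 8.52 CPM in shRFP with IFNγ. Without IFNγ it stood at 9.11, 7.76 and 8.80 CPM in shSdc1, against 2.51, 1.66 and 1.45 CPM in shRFP. Unstimulated knockdown libraries and IFNγ-treated control libraries overlapped, while the remaining groups stood apart from them and from each other. The log2 fold change of shSdc1 over shRFP was 3.01 ± 0.16 with IFNγ, an 8.06-fold difference, and 2.14 ± 0.23 without it. For IFNγ it was 2.75 ± 0.15 in shSdc1 and 1.88 ± 0.24 in shRFP.

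C1r and C1s act together in the C1 complex, and the balance of their transcripts differed between the groups. Per base of exon and within a library, which needs no scaling between libraries, the ratio of C1s1 to C1ra was 0.411, 0.495 and 0.395 in shSdc1 with IFNγ, against 0.115, 0.0698 and 0.131 in shRFP with IFNγ. Without IFNγ the ratio was 0.475, 0.318 and 0.411 in shSdc1, against 0.261, 0.165 and 0.153 in shRFP. Every knockdown library was above every control library. The group means were 0.434 ± 0.054 and 0.105 ± 0.032 with IFNγ, and 0.401 ± 0.079 and 0.193 ± 0.059 without it, in shSdc1 and shRFP in that order.

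**Figure D1:**
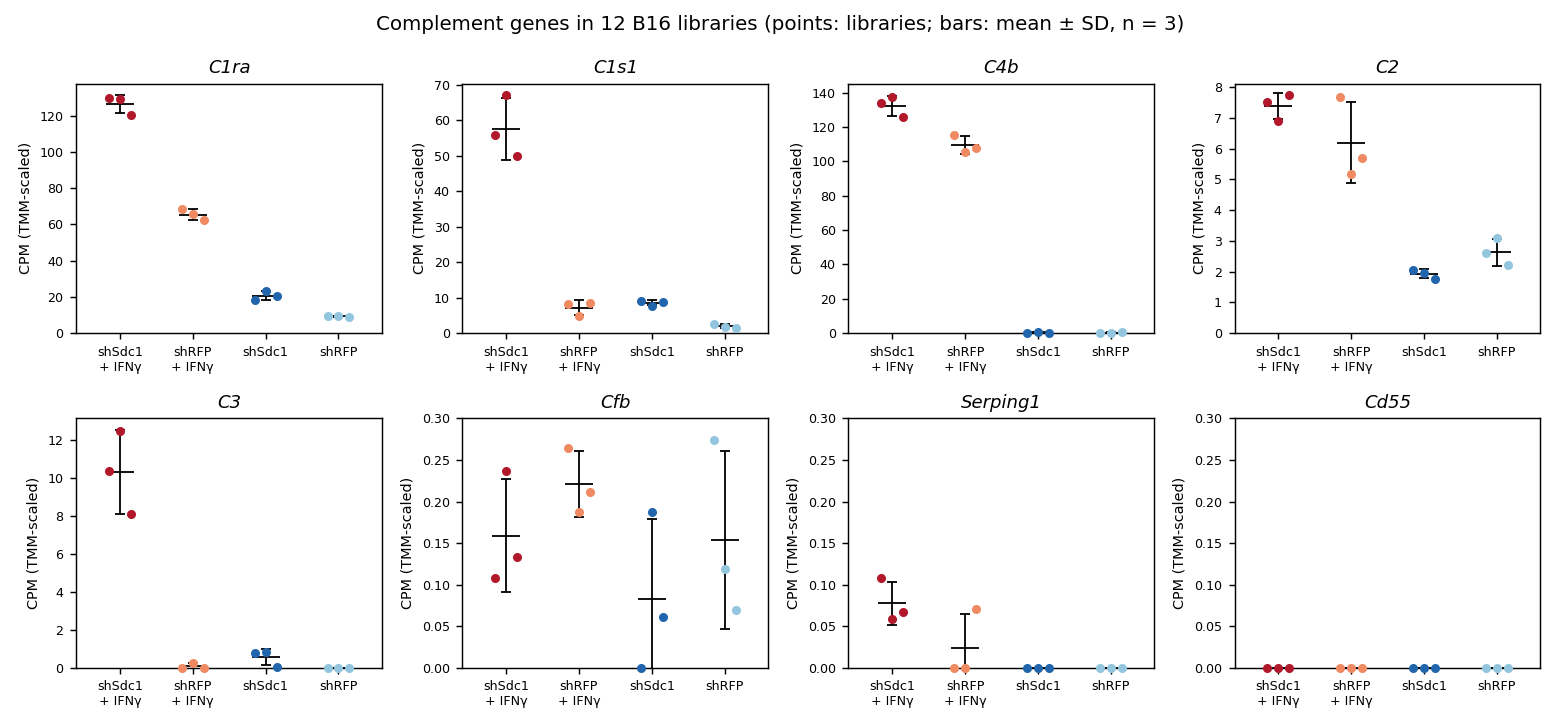
Level of each of the 8 complement genes (y axis, TMM-scaled CPM, a linear axis from 0 in each panel) in the groups shSdc1 with IFNγ, shRFP with IFNγ, shSdc1 and shRFP. Points are libraries and bars are the mean ± SD of 3, with the lower bar ending at the axis where it would pass 0. C1ra, C1s1 and C3 were highest in shSdc1 with IFNγ, C4b was high in both groups with IFNγ, and Cfb, Serping1 and Cd55 stayed under 0.3 CPM in every library.

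**Figure D2:**
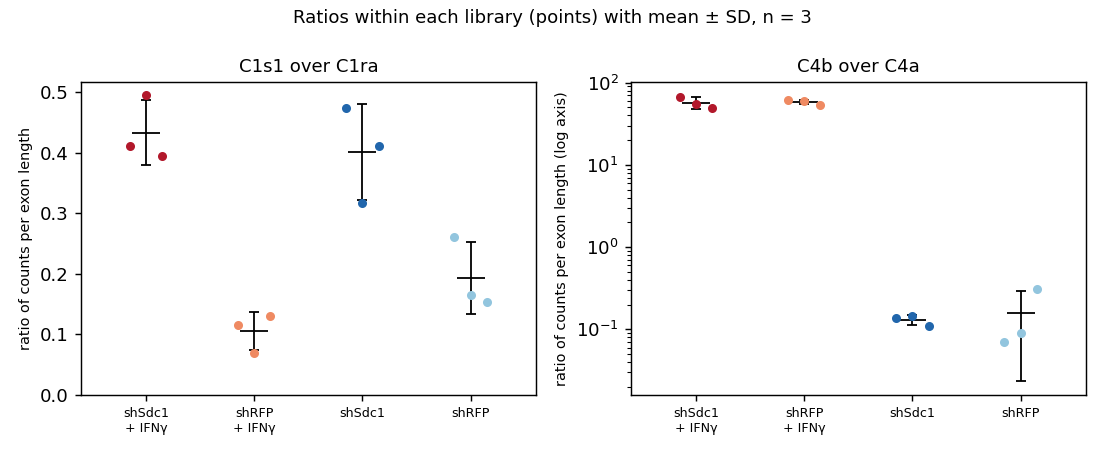
Ratio of counts per exon length within each library (y axis) for C1s1 over C1ra (linear axis) and C4b over C4a (log axis) in the 4 groups, with points for libraries and bars for the mean ± SD of 3. The C1s1 ratio was above 0.3 in all knockdown libraries and under 0.3 in all control libraries, and the C4b ratio was about equal in the 2 groups with IFNγ.

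C4b, which encodes C4, the substrate of C1s and of MASP-2, was close to undetected without IFNγ and among the highest of these genes with it. It had 133.9, 137.4 and 125.6 CPM in shSdc1 with IFNγ and 115.3, 105.2 and 108.0 CPM in shRFP with IFNγ. The groups without IFNγ had 5, 6 and 5 counts per library in shSdc1, against 4, 3 and 8 counts in shRFP. The log2 fold change of IFNγ was 8.62 ± 0.13 in shSdc1 and 8.56 ± 0.13 in shRFP. As ratios of summed counts these were 405-fold, with a 95% exact interval of 248.9 to 708, and 389-fold, with an interval of 236 to 695. Of the 15 control counts 8 were in shRFP replicate 3, and without that library the log2 fold change in shRFP was 9.19. All knockdown libraries with IFNγ were above all control libraries with IFNγ, but the step was small, 0.27 ± 0.06 on the log2 scale or 1.21-fold. At 16 and 15 counts over the groups, a knockdown effect without IFNγ was not detectable at this depth (ratio 1.16, interval 0.539 to 2.53).

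C2, the protease subunit of the classical convertase, stood at 7.52, 6.91 and 7.73 CPM in shSdc1 with IFNγ and at 7.67, 5.17 and 5.71 CPM in shRFP with IFNγ, groups that overlapped. Without IFNγ it stood at 2.07, 1.94 and 1.77 CPM in shSdc1, against 2.60, 3.09 and 2.21 CPM in shRFP, so the knockdown libraries were the lower ones. The log2 fold change of the knockdown was 0.26 ± 0.16 with IFNγ and -0.46 ± 0.21 without it, and neither was called, although the first passed at 0.44 without replicate 1 of shRFP with IFNγ. The log2 fold change of IFNγ was 1.94 ± 0.18 in shSdc1 and 1.22 ± 0.18 in shRFP, or 3.82-fold and 2.33-fold. Per base of exon C4b was 12.2 ± 1.24 times as abundant as C2 in shSdc1 with IFNγ and 12.3 ± 1.88 times in shRFP with IFNγ, whereas it was the less abundant of the pair in every library without IFNγ. Other gene models also held 46.9% of the exon bases of C2 and 0% of those of C4b. The effect of this overlap on the ratio was not tested.

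C3, the component on which all pathways converge, was counted mainly in the knockdown cells. It had 193, 212 and 122 counts (10.4, 12.5 and 8.13 CPM) in shSdc1 with IFNγ and 0, 4 and 0 counts in shRFP with IFNγ. In cells without IFNγ it had 13, 13 and 1 counts in shSdc1, against 0 counts in all 3 libraries of shRFP. With IFNγ the ratio of summed counts, 527 against 4, was 118 with a 95% exact interval of 45.9 to 435. All 4 control counts came from shRFP with IFNγ replicate 2. Without that library C3 was 101.8-fold above 3 counts over the other 2, and the exact interval began at 82.5. Without IFNγ it was 9.82-fold higher in shSdc1 than 3 counts over the shRFP group would give, and the exact interval began at 7.45. The low count of 1 was in shSdc1 replicate 3, the library with the excess of ENSMUSG00000119584. Without it the fold over 3 counts was 14.2, against 7.68 without shSdc1 replicate 1 and 7.57 without replicate 2. In the knockdown the log2 fold change of IFNγ was 4.21 ± 0.39, and the ratio of counts, 527 against 27, was 18.8 (12.8 to 28.9), or 13.0 (8.77 to 20.1) without shSdc1 replicate 3. In shRFP the effect of IFNγ, 4 counts against 0, was not detectable at this depth.

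The remaining members were near or at 0. Cfb, which encodes factor B of the alternative convertase, had 2, 4 and 2 counts in shSdc1 with IFNγ, 4, 3 and 3 in shRFP with IFNγ, 0, 3 and 1 in shSdc1 and 6, 2 and 1 in shRFP. The groups overlapped in each comparison, and the counting intervals of the ratios were wide: 0.246 to 2.02 for shSdc1 over shRFP with IFNγ, 0.109 to 1.74 without it, 0.517 to 8.76 for IFNγ in shSdc1, and 0.476 to 3.63 for IFNγ in shRFP. Serping1 had 2, 1 and 1 counts in shSdc1 with IFNγ, 0, 0 and 1 in shRFP with IFNγ and 0 in the 6 libraries without IFNγ. Its ratio of 4 counts to 1, shSdc1 over shRFP with IFNγ, had an interval of 0.355 to 177. For IFNγ in shSdc1, 4 counts against 0 were 1.29-fold above 3 counts over the group, and the exact interval began at 0.637. For IFNγ in shRFP, 1 count against 0, the interval began at 0.0301. Cd55 had 0 counts in all 12 libraries, which allows at most 0.0563 to 0.0661 CPM per group (3 counts over the group). Only counting error enters these floors and intervals, and reads copied by PCR are not independent.

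Levels between genes can be compared only per length, here as CPM per kb of exon. In shSdc1 with IFNγ the order of these levels was C1ra (42.4 ± 1.73), C4b (23.2 ± 1.06), C1s1 (18.4 ± 2.79), C3 (2.01 ± 0.43) and C2 (1.91 ± 0.11), where C3 and C2 did not differ beyond their spread. In shRFP with IFNγ it was C1ra (21.9 ± 1.03), C4b (19.2 ± 0.92), C1s1 (2.30 ± 0.67) and C2 (1.60 ± 0.34), where the last pair overlapped in range. C1ra was also the highest without IFNγ, at 6.93 ± 0.84 CPM per kb in shSdc1 and 3.11 ± 0.10 in shRFP. There C1s1 came next in shSdc1, at 2.73 ± 0.23, and C1s1 (0.599 ± 0.179) and C2 (0.680 ± 0.113) overlapped in shRFP. With the length of the longest transcript in place of all exons, C2 was above C3 in shSdc1 with IFNγ. Exon bases that C2 shares with other genes are included in its length.

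Some of these genes share sequence or exons with others, and the counting rule and strand setting for such reads were not given in the sources used here. In the GENCODE M21 gene models, 79.5% of the exon bases of Cfb and 42.8% of those of C2 also belonged to Gm20547, a model on the same strand that spans both genes and had 0 counts in all libraries. Only 579 bases of Cfb lay in no other gene, so its low counts cannot be read as a low level. Of the 100-base words in the longest transcript, C4b shared 16.5% with C4a, C1ra shared 34.5% with C1rb, and C1s1 shared 12.1% with the antisense model Gm16567 and fewer with C1s2. Of the 50-base words, C4b shared 35.2% with C4a and C1ra shared 48.0% with C1rb. C1s1 shared 24.3% of them with C1s2, there its largest share. C2 shared 53.2% of its 100-base words and 58.0% of its 50-base words with Gm20547. Cd55 shared 5.50% of its 100-base words and 10.7% of its 50-base words with Cd55b, and C3 and Serping1 shared none of either length. C4a, in mice the gene of the sex-limited protein, had 31 counts in every library of shRFP with IFNγ while C4b had 1534 to 1743. C1rb had 10 counts over shSdc1 with IFNγ and C1s2 had 8, against 6405 for C1ra and 2924 for C1s1. Per length C4b exceeded C4a 57.3 ± 9.72 times in shSdc1 with IFNγ and 58.2 ± 3.82 times in shRFP with IFNγ. Whether this sharing lowered the levels of C4b, C1ra, C1s1, C2 and Cfb was not tested.

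**Figure D3:**
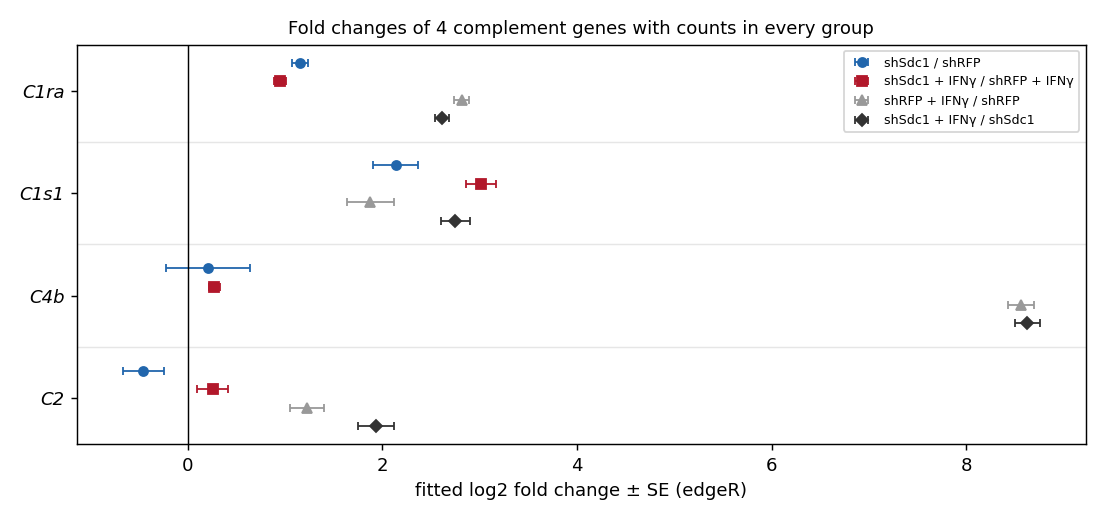
Fitted log2 fold change ± SE (x axis) of C1ra, C1s1, C4b and C2 (rows) for shSdc1 over shRFP without and with IFNγ, and for IFNγ over none in shRFP and in shSdc1. C4b had the largest fold changes of IFNγ (8.56 and 8.62) and small ones of the knockdown, while C1s1 exceeded 1.8 in all 4 comparisons.

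Read against the whole table, a gene was called when its edgeR adjusted p over the 14089 genes tested was under 0.05. Since the members were chosen with these contrasts known, nothing is read from their counts. C3 passed the filter only through shSdc1 with IFNγ, and C4b only through the groups with IFNγ. Their calls as higher after IFNγ, and that of C3 in the knockdown with IFNγ, are thus tied to the filter. Of the 5 members tested, 4 were called higher in shSdc1 with IFNγ than in shRFP with IFNγ (C3, C1ra, C1s1 and C4b), where 18.9% of all genes were called higher and 17.4% lower. Without IFNγ, 3 were called higher in shSdc1 (C3, C1ra and C1s1), where the shares of all genes were 14.0% higher and 14.6% lower. With IFNγ all 5 tested were called higher in shSdc1 (17.5% of all genes higher, 13.0% lower) and 4 in shRFP (17.2% higher, 14.4% lower), where C3 was not called. In the 4 comparisons between groups 0 members were called lower by edgeR, by DESeq2 and by limma-voom, and 1, C2 in the knockdown without IFNγ, was lower at an unadjusted p under 0.05. Without shSdc1 replicate 3 these counts were the same.

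The interaction is the difference between the knockdown's effect with IFNγ and its effect without. For C1s1 it was 0.87 ± 0.30 on the log2 scale, for C2 0.71 ± 0.26, for C4b 0.06 ± 0.49 and for C1ra -0.20 ± 0.11. Of the 5 members, 0 were called in either direction by edgeR, DESeq2 or limma-voom, and 2, C1s1 and C2, were higher at an unadjusted p under 0.05. C1s1 stayed uncalled under 18 of 20 alternatives and C2 under 19 of 20. The exceptions for C1s1 were the fit without a filter and that without replicate 3 of shRFP with IFNγ. For C2 (0.90) it was the fit without replicate 1 of shRFP with IFNγ. Since the members were chosen with these contrasts known, nothing is read from these calls. Over all genes 4.58% were called higher and 5.15% lower. For C3 the fitted value rests on a control group at 0 counts and is not given.

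Promoter windows from RefSeq (build GRCm38.p6) are shown for C3, C1ra and C1s1, the members with the largest knockdown differences. Each runs 250 bases before to 50 after an annotated start, 5′ to 3′ on the gene's strand, and windows were held for C3, C1ra, C1s1 and Cd55. Capitals mark matches, on either strand, to the motifs searched: GAS (TTCNNNGAA), the ISRE consensus, bound by interferon-activated factors, C/EBP (TTGCNNAA), AP-1 (TGANTCA) and the NF-kB consensus.
C3, chr17:57228087-57228386, minus strand: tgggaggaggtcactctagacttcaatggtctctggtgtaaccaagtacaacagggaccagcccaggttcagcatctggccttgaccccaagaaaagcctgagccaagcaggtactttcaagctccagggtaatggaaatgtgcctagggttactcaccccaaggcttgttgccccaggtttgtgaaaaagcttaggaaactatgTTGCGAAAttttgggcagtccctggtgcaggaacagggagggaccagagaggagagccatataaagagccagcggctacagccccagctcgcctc
C1ra, chr6:124512371-124512670, plus strand: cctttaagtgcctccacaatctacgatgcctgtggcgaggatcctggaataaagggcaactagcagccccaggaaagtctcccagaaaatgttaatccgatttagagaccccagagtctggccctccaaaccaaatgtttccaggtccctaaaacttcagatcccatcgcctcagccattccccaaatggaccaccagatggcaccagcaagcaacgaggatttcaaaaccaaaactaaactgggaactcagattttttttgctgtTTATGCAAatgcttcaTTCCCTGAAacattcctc
C1s1, chr6:124542310-124542609, minus strand: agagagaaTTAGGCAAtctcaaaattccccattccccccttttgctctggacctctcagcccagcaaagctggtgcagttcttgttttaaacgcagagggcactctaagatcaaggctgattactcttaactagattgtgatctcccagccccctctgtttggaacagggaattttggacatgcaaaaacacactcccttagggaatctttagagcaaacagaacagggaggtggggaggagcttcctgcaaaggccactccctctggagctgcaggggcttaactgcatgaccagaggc

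In the C3 window a C/EBP match began at position -45 from the start, and in that of C1s1 at -242. In the C1ra window a C/EBP match began at position 17 and a GAS match at 33, both after the start. No window of these genes matched the ISRE, AP-1 or NF-kB letters, and the second C1s1 start and Cd55 had no match of any kind. Of the 32851 windows in the table, 10.8% held the C/EBP motif, 8.30% GAS, 7.81% AP-1, 4.51% the NF-kB consensus and 3.44% ISRE. A match is a description of the letters and not a site.

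The other complement genes came from a list of 48 set out by role. Of these, 19 had 0 counts in all 12 libraries, 17 were counted but below the filter, and 12 were tested. The genes at 0 included all chains of C1q (C1qa, C1qb and C1qc), the mannose-binding lectins Mbl1 and Mbl2, the pore components C6, C7, C8a, C8b and C9, and the anaphylatoxin receptors C3ar1, C5ar1 and C5ar2. The factor D gene Cfd had 1 count in all. Masp1, C1rl and Clu were higher in both knockdown groups, and 0 of the 3 membrane regulators tested (Cd46, Cr1l and Cd59a) were called for the knockdown by edgeR, DESeq2 or limma-voom, or passed an unadjusted p under 0.05.

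With IFNγ, 3 of the 12 genes tested were higher in shSdc1 than in shRFP and 1 was lower, with a median log2 fold change of 0.33 against 0.02 over all genes. Of all genes, 18.9% were called higher and 17.4% lower. Masp1, which encodes lectin pathway proteases, stood at 474 ± 16.3 CPM in shSdc1 with IFNγ and 234 ± 13.1 CPM in shRFP with IFNγ (1.02 ± 0.04, edgeR adjusted p = 2.8e-12). C1rl, a relative of C1r encoded beside C1ra, stood at 41.6 ± 0.26 against 19.0 ± 1.15 CPM in the same order (1.13 ± 0.07, edgeR adjusted p = 9.6e-10). Clu, the gene of clusterin, which blocks assembly of the pore, stood at 6.14 ± 0.50 against 1.34 ± 0.32 CPM (2.18 ± 0.20, edgeR adjusted p = 1.1e-07). C1qbp, a mitochondrial protein that binds C1q, was the lower one, at 83.4 ± 2.55 against 108.6 ± 0.50 CPM (-0.38 ± 0.05, edgeR adjusted p = 6.8e-06). Cfp, the gene of properdin, which stabilises the alternative convertase, did not pass (0.38 ± 0.15, edgeR adjusted p = 0.051). It passed under 8 of 21 alternatives (0.044 to 0.23 over all), among them those that left out shSdc1 replicate 1 or 2, replicate 1 of either group with IFNγ, or replicate 3 of the controls with IFNγ.

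Without IFNγ the same 3 genes passed, each higher in shSdc1, and 0 of the 12 were lower by edgeR, DESeq2, limma-voom or at an unadjusted p under 0.05. The median log2 fold change was 0.11, against 0.00 over all genes, of which 14.0% were called higher and 14.6% lower. Masp1 stood at 391 ± 8.61 CPM in shSdc1 and 230.2 ± 4.02 CPM in shRFP (0.76 ± 0.04, edgeR adjusted p = 1.6e-10). C1rl stood at 19.8 ± 1.90 CPM in shSdc1 and 8.63 ± 0.53 CPM in shRFP (1.20 ± 0.09, edgeR adjusted p = 4.1e-09), and Clu at 3.62 ± 0.29 and 0.999 ± 0.208 CPM in that order (1.88 ± 0.22, edgeR adjusted p = 2.8e-06). The genes C4a, C8g, which encodes a chain of C8, and Colec11, a soluble lectin, did not pass in any comparison, with log2 fold changes between -0.50 and 0.33.

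**Figure D4:**
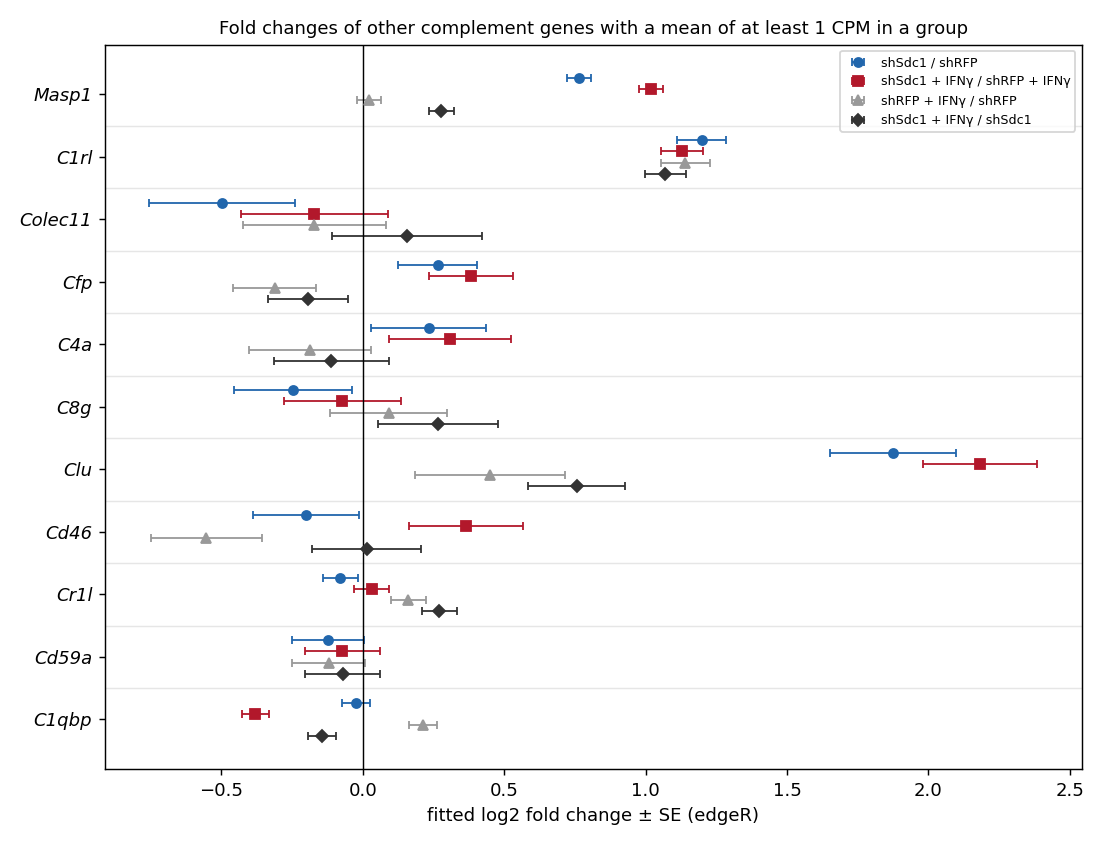
Fitted log2 fold change ± SE (x axis) of the 11 other complement genes whose level reached 1 CPM in any group (rows), for the knockdown without and with IFNγ and for IFNγ in shRFP and in shSdc1. Masp1, C1rl and Clu lay above 0.7 in both knockdown comparisons, and C1rl alone among the 11 lay above 1 in both IFNγ comparisons.

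The IFNγ comparisons covered the same 12 genes. In shSdc1 IFNγ raised 4 of the 12 and lowered 1 (median log2 fold change 0.09, against 0.00 over all genes). Over all genes 17.5% were called higher and 13.0% lower in that comparison. C1rl rose by 1.07 ± 0.07 (edgeR adjusted p = 9.5e-10), Clu by 0.76 ± 0.17 (edgeR adjusted p = 0.0023), Masp1 by 0.28 ± 0.04 (edgeR adjusted p = 5.3e-05) and Cr1l, the rodent membrane regulator Crry, by 0.27 ± 0.06 (edgeR adjusted p = 0.0025). C1qbp was lower by a small step there (-0.14 ± 0.05, edgeR adjusted p = 0.033, 0.0068 to 0.21 over 21 alternatives), and its call ended without shSdc1 replicate 1 or replicate 2 or 3 of shSdc1 with IFNγ. In shRFP IFNγ raised 2 and lowered 1 (median -0.01, as over all genes), where 17.2% of all genes were called higher and 14.4% lower. C1rl rose by 1.14 ± 0.09 (edgeR adjusted p = 5.5e-09) and C1qbp by 0.21 ± 0.05 (edgeR adjusted p = 0.0026). Cd46, a membrane cofactor for the cleavage of C3b, was lower (-0.55 ± 0.20, edgeR adjusted p = 0.039, 0.0084 to 0.18 over 21 alternatives). Of the libraries left out in turn, shRFP replicate 1 or 2 and replicate 2 or 3 of the controls with IFNγ each ended its call. Cd59a, which blocks the pore on the cell's own membrane, did not pass in any comparison and stood at 6.995 ± 0.95 CPM in shSdc1 with IFNγ, 7.34 ± 1.02 in shRFP with IFNγ, 7.36 ± 0.11 in shSdc1 and 7.99 ± 0.35 in shRFP.

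In the interaction 1 of the 12 other genes was called higher and 1 lower, where 4.58% of all genes were called higher and 5.15% lower. The effect of the knockdown on Masp1 was larger with IFNγ, by 0.26 ± 0.06 on the log2 scale (edgeR adjusted p = 0.013), and that on C1qbp was more negative, by -0.36 ± 0.07 (edgeR adjusted p = 0.0037).

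Over the 12 libraries the genes with the pattern most like each member were listed by Pearson correlation of log2 CPM, among 9957 genes with a symbol whose level reached 5 CPM in any group. For C4b they were Nlrc5 and Tap1, genes of MHC class I presentation, both at r = 0.997. For C1ra they were Parp3 (0.997) and the caspase gene Casp12 (0.996), which stood at 46.2 CPM in shSdc1 with IFNγ, 9.31 CPM in shRFP with IFNγ, 0.675 CPM in shSdc1 and 0 in shRFP. The nearest to C1s1 were Creld1 (0.992) and Espn (0.988), and those nearest to C2 were Sidt2 (0.992) and Elf1 (0.985). For C3 they were Slc11a2 (0.967), a metal ion transporter, and the phosphatase gene Ptprk (0.962). These values are descriptions, since the libraries fall into 4 groups and these correlations were picked as the largest of all.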

How the data were processed

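RNA was sequenced from 12 libraries in 4 groups of 3. The deposited values are raw counts per gene, whole numbers, made by the authors with GRCm39, HISAT2 2.0.5, HTSeq and Trimmomatic, per the submitters' processing notes. Neither the annotation nor the strand setting is given in the sources used here. Symbols were taken from GENCODE M21 (GRCm38) and matched 52083 of 56093 entries. Because the builds differ, gene coordinates are not given, and those of the promoter windows are RefSeq's on GRCm38.p6. Exon lengths, overlaps and shared words of 50 and 100 bases came from GENCODE M21.

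Genes were kept by filterByExpr (minimum count 10, minimum total 15), which left 14089. Counts were scaled by TMM and fitted with 1 coefficient per group over all 12 libraries in edgeR 4.0.16 (R 4.3.3), with 8 residual degrees of freedom, a quasi-likelihood F test, a prior count of 0.125 for fold changes and Benjamini-Hochberg adjustment over all genes, two-sided. The SE is the log2 fold change over the square root of F and overstates precision at few counts. For 0 counts the fold is against 3 counts over the group and ignores counting error in the other group. Exact intervals are 95% and Clopper-Pearson. The fit was tested on simulated data with a common spread and changes placed only in well-counted genes, so genes near 0 counts were not covered. Alternatives used DESeq2 1.42.0, limma 3.58.1, other scalings and filters, a replicate block and leaving out libraries. Intervals, lengths and motifs used Python 3.11.15, pandas 2.3.3, numpy 2.4.6 and scipy 1.17.1, and figures matplotlib 3.10.9.

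The members, lists and named genes were chosen with earlier results of these data known. Named were the members, other complement genes tested that reached 1 CPM in any group, the 2 genes most like each member (prior count 2) and Sdc1. Within each group, libraries differed by more than sampling noise, so none was counted as a duplicate.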

Additional observations from a re-analysis of the deposited data

Results flagged for a closer look

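The effect of the Sdc1 knockdown differed with IFNγ, by the interaction test, in 2 of the complement genes named above. For Masp1 the difference was 0.26 on the log2 scale, with the knockdown effect larger in cells with IFNγ. For C1qbp it was -0.36, with a fall in the knockdown only among the cells with IFNγ passing the test. Both differences kept their direction and call under all 20 alternative fits that could be run for the interaction. Neither reached a log2 fold of 1, so both calls ended where that was required. Groups of 3 libraries were not tested for outlying samples.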

How the results depend on the processing

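Over the alternatives run, 1642 fold changes of the 16 complement genes tested by name (5 members and 11 others) kept their call, 8 lost it, 14 gained it and 0 called ones changed sign. With a log2 fold of at least 1 required, 2 members were called higher for the knockdown with IFNγ. The share of all genes called under that rule was not computed, so nothing is read from its counts. Under that rule 1 other complement gene was higher for IFNγ in each of shRFP and shSdc1, and 0 others were lower in the knockdown with IFNγ or in either IFNγ comparison, or called either way in the interaction. Without a filter, 1 member, C1s1, was called higher in the interaction, where 791 of 27472 genes were called higher and 985 lower. With the replicate number as a block, 0 other genes were lower for IFNγ in shRFP, since Cd46 lost its call; no other count moved by over 1.5 times. Libraries of the same number did not deviate together (r from -0.07 to 0.03 over 18 pairs), so the numbers were not taken as pairs. Leaving out each library in turn gave 0 to 1 members higher in the interaction (C1s1 without replicate 3 of shRFP with IFNγ, C2 without replicate 1), and 0 to 1 other genes lower for IFNγ in shRFP and in shSdc1. C2 was also called higher in the knockdown with IFNγ, at 0.44, without replicate 1 of shRFP with IFNγ. The other causes were not tested. Depth limits Serping1 and Cd55 in all groups, C4b without IFNγ and C3 in shRFP. For Cfb few counts and exons shared with Gm20547 cannot be told apart.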
